A study of Homo sapiens with 11 samples.

Results

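The plasminogen activation and tissue factor genes were 9 genes taken by symbol from the authors' deposited table, PLAU, PLAUR, PLAT, SERPINB2, SERPINE2, F3, TFPI, TFPI2 and THBD, of 23434 rows in all. All 9 were present, 8 had an adjusted p, and SERPINB2 did not. The tumours grew in the liver from PANC1 LM3 cells, a liver-metastatic derivative (generation 3) of PANC1, an established human pancreatic ductal carcinoma line, and were harvested on day 21, 500000 cells having been injected into the spleen on day 1. The cells carried the NPTX1 hairpin shNPTX1_4 (4 libraries), the NPTX1 hairpin shNPTX1_3 (3 libraries) or a control hairpin, shCTRL (4 libraries). All 3 groups share the cell line, the route and the day, and the genotype is labelled NPTX1 knock down for both hairpins and WT for shCTRL. The labels call the libraries biological replicates but tie none of them to an animal and do not say whether the cells of a hairpin were a pool or a clone. The p-values therefore rest on the spread among these libraries, part of which may be technical. The deposited test takes the 7 knockdown libraries as 1 group, so differences between the 2 hairpins also enter its error.

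Plasminogen is cut to the protease plasmin by urokinase (PLAU), which works at the cell surface on its receptor PLAUR, or by tissue plasminogen activator (PLAT), and serpins such as SERPINB2 and SERPINE2 trap these activators. Tissue factor (F3) binds factor VII to start coagulation, the Kunitz-type inhibitor TFPI blocks that complex, its relative TFPI2 inhibits plasmin and other serine proteases, and thrombomodulin (THBD) turns thrombin towards the activation of protein C. In pancreatic carcinoma the urokinase system is known for matrix breakdown and invasion, and tissue factor for the clotting that accompanies the disease.

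The promoters of 4 of these genes are shown because they hold the letters TGANTCA, where N is any base. This is a looser form of TGA(C/G)TCA, the core recognised by AP-1, the dimers of FOS and JUN proteins. The sequences are the 250 bases before the RefSeq start on GRCh38.p14, read 5′ to 3′ on the strand of the gene, and the capitals mark each match. They are F3 (chr1:94541760-94542009, minus strand), TFPI2 (chr7:93890754-93891003, minus strand), PLAUR (chr19:43670170-43670419, minus strand) and SERPINB2 (chr18:63887455-63887704, plus strand).
F3: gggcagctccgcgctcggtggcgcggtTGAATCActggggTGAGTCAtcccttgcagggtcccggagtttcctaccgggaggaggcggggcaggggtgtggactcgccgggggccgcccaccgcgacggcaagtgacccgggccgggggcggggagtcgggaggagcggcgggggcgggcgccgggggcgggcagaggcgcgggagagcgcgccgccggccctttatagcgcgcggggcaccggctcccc
TFPI2: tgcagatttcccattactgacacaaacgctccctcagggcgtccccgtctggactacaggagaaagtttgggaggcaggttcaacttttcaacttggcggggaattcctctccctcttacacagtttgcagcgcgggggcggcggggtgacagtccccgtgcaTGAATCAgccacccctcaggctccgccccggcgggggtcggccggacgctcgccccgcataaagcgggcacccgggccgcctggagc
PLAUR: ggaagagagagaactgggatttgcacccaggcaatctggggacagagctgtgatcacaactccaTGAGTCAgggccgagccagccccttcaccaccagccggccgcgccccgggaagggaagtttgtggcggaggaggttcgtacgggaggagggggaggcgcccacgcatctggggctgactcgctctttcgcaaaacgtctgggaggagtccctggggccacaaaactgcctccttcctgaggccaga
SERPINB2: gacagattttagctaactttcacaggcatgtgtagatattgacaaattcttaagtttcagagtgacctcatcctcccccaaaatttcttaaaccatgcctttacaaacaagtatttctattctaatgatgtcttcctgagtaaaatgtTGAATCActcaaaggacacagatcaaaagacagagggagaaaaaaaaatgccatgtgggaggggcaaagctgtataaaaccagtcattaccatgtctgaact

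Promoters were found for 7 of the 9 genes, in 9 windows, PLAU and SERPINE2 having 2 starts each, and not for PLAT or THBD. F3 held 2 AP-1 matches, TGAATCA beginning 223 and TGAGTCA beginning 210 bases before the start. TFPI2 held 1 match at 87 bases (TGAATCA), PLAUR 1 at 186 (TGAGTCA) and SERPINB2 1 at 102 (TGAATCA). The windows of PLAU, SERPINE2 and TFPI held none. TGAATCA meets the looser letters but not TGA(C/G)TCA. Of all 35116 RefSeq windows of the same length, 6.57% held at least 1 match to TGANTCA and 0.402% held 2 or more. The share with the stricter core was not counted. The SP1 core GGGCGG, searched on both strands, lay in F3, TFPI2, SERPINE2 and 1 of the 2 PLAU windows, and in 42.6% of all windows. The EGR1 core GCGGGGGCG lay in F3 and TFPI2, where it overlaps an SP1 match, and in 4.72% of all windows. The TATA letters TATAAA lay in F3, as their reverse complement, and in SERPINB2, against 10.7% of all windows. The letters CCGGAA, a narrow form of the ETS site, lay in none of the 9 windows, against 14.5%. The shorter ETS core GGAA, which the PLAUR sequence above holds, was not searched. These matches describe letters only.

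**Figure D1:**
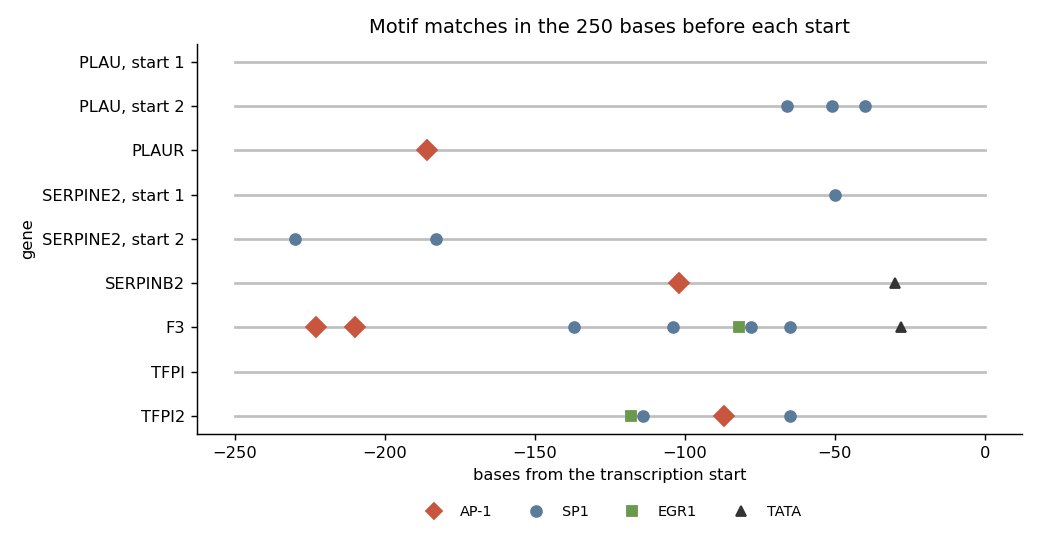
Motif matches in the 250 bases before the start of 7 of the 9 genes, one line per window, with the distance from the start in bases on the horizontal axis and a symbol at the first base of each match. F3 carries 2 AP-1 matches (letters TGANTCA), TFPI2, PLAUR and SERPINB2 carry 1 each, and PLAU, SERPINE2 and TFPI carry none.

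The comparison of the 7 NPTX1 knockdown libraries with the 4 control libraries asked which genes differ when NPTX1 is lowered. Of the 9 genes, 4 rose, namely TFPI2, TFPI, PLAT and THBD, and the serpin SERPINE2 fell. The transcripts of urokinase, its receptor and tissue factor (PLAU, PLAUR and F3) did not pass the test. These 5 calls among 8 tested genes (4 higher and 1 lower, DESeq2 adjusted p under 0.05) stand beside 27.3% of 18426 named genes called in the authors' deposited table, 15.8% higher and 11.5% lower. All 8 had a mean of at least 38.6 normalized counts. Of the 14127 genes at that mean, adjusted on their own, 2869 were higher and 1974 lower. The 9 genes were chosen with earlier results of these data known, so the counts are no unbiased contrast with all genes. The median log2 fold change was 0.57 over the 8 genes and -0.01 over all genes tested. NPTX1 itself was lower with both hairpins, at 38.4 mean normalized counts in shNPTX1_4 and 46.5 in shNPTX1_3 against 103 in shCTRL in the authors' deposited table.

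Values per library were not analysed here. Each level is therefore the authors' mean of a group in the authors' deposited table, without an SD, and the error is that of the pooled comparison. The log2 ratio for each hairpin, from which the genes at least 2-fold apart were counted, has 1 added to each group mean. Values given as times the control mean are plain ratios of the means. Neither has a test. In these bulk tumours, fewer cells of a type and less RNA per cell cannot be told apart.

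**Figure D2:**
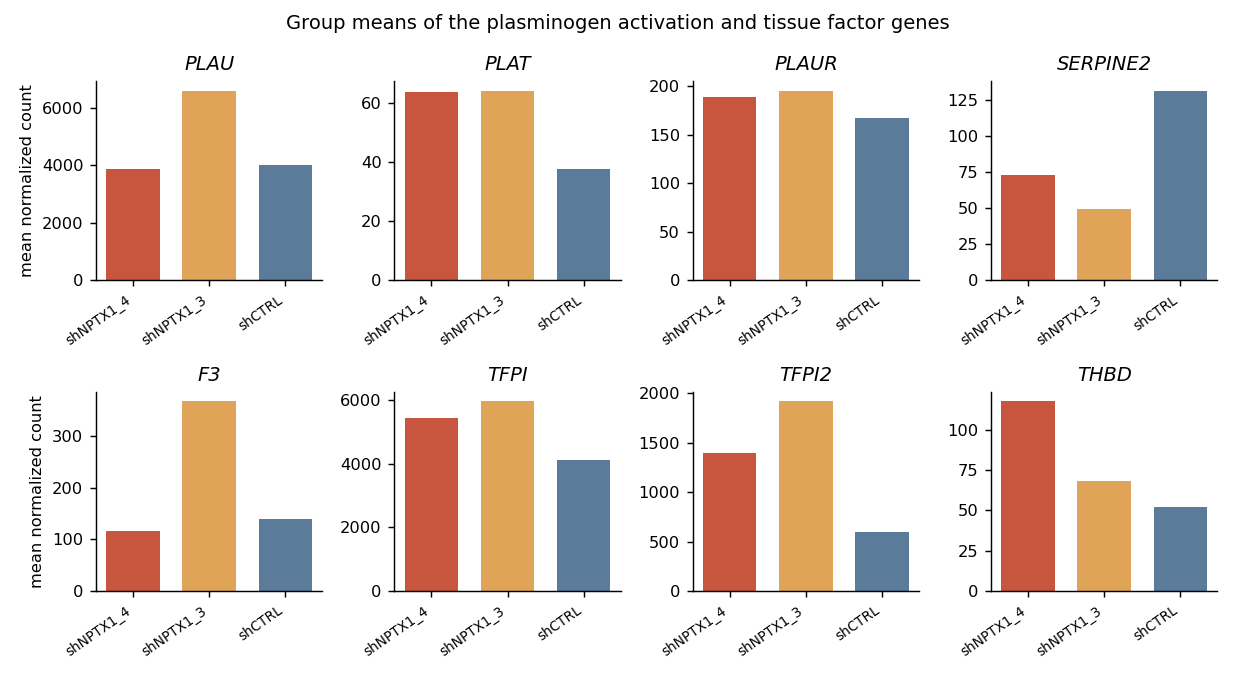
Authors' mean normalized count of 8 genes (vertical axes, each from 0) in shNPTX1_4, shNPTX1_3 and shCTRL tumours, with no error bar because values of single libraries were not analysed. TFPI2, TFPI, PLAT and THBD are higher with both hairpins than in shCTRL, SERPINE2 is lower with both, and PLAU and F3 are higher with shNPTX1_3 than in the other 2 groups.

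Among the activators, PLAU had authors' means of 3877 normalized counts in shNPTX1_4 and 6592 in shNPTX1_3 against 4008 in shCTRL in the authors' deposited table. The shNPTX1_3 mean was thus 1.64 times that of control, while the shNPTX1_4 mean was 0.967 times that of control. For PLAU the authors' deposited table gave a pooled log2 fold change of 0.33 (SE 0.23, adjusted p = 0.293 by DESeq2), and its 95% interval ran from -0.12 to 0.79. PLAT, the other activator, had authors' means of 64.0 normalized counts in shNPTX1_4 and 64.3 in shNPTX1_3 against 37.7 in shCTRL in the authors' deposited table. The mean was 1.70 times the control mean with shNPTX1_4 and 1.71 times with shNPTX1_3. PLAT rose 1.67-fold by the authors' deposited table (log2 fold change 0.74, SE 0.19, adjusted p = 7.95e-04 by DESeq2).

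The receptor gene PLAUR did not pass the test. Its authors' means were 189 normalized counts in shNPTX1_4 and 195 in shNPTX1_3 against 167 in shCTRL in the authors' deposited table. The pooled log2 fold change that the authors' deposited table gives for PLAUR was 0.21 (SE 0.13, adjusted p = 0.243 by DESeq2), and the 95% interval from -0.05 to 0.46 reaches up to 1.38-fold.

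Of the 2 serpins, SERPINE2 (protease nexin, an inhibitor of thrombin, urokinase and PLAT) was the only gene of the 9 that fell past the threshold. Its authors' means were 72.9 normalized counts in shNPTX1_4 and 49.2 in shNPTX1_3 against 131 in shCTRL in the authors' deposited table. Both hairpin means lay below control, at 0.555 times its mean with shNPTX1_4 and 0.375 times with shNPTX1_3. By the authors' deposited table SERPINE2 had a log2 fold change of -1.05 (SE 0.19, adjusted p = 1.39e-06 by DESeq2), and 2.45% of the 18426 genes had a lower one. SERPINB2, an inhibitor of urokinase and PLAT, was at or near 0 in these tumours, with an authors' mean listed at 0 in shNPTX1_4 and in shNPTX1_3 and of 0.430 normalized counts in shCTRL in the authors' deposited table. At that level no change could be detected, and no fold is given.

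Tissue factor showed the widest gap between the hairpins. F3 had authors' means of 116 normalized counts in shNPTX1_4 and 368 in shNPTX1_3 against 140 in shCTRL in the authors' deposited table. The shNPTX1_3 mean was 2.63 times the control mean, whereas the shNPTX1_4 mean was 0.826 times the control mean. With both hairpins pooled, the authors' deposited table put F3 at a log2 fold change of 0.67 (SE 0.46, adjusted p = 0.279 by DESeq2), and the 95% interval reached from -0.23 to 1.58. The SE of F3 was 3.69 times the median of 14131 genes with a mean of at least 2 CPM, and 0.778% of those genes had a larger one. One CPM is a millionth of the summed means over all libraries, so 2 CPM equals 38.6 normalized counts.

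Both Kunitz-type inhibitors rose. TFPI2 had authors' means of 1390 normalized counts in shNPTX1_4 and 1919 in shNPTX1_3 against 598 in shCTRL in the authors' deposited table. These were 2.33 and 3.21 times the control mean. Pooled over hairpins, TFPI2 rose 2.71-fold by the authors' deposited table (log2 fold change 1.44, SE 0.14, adjusted p = 7.62e-21 by DESeq2), and 1.45% of the 18426 genes had a higher one. TFPI, the inhibitor of the tissue factor complex, had authors' means of 5428 normalized counts in shNPTX1_4 and 5958 in shNPTX1_3 against 4113 in shCTRL in the authors' deposited table. The TFPI change was smaller but had the smallest error of the 8 genes, at 1.38-fold by the authors' deposited table (log2 fold change 0.46, SE 0.08, adjusted p = 2.03e-07 by DESeq2).

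THBD, the thrombin receptor on the anticoagulant side, was higher with both hairpins but unequally so. Its authors' means were 118 normalized counts in shNPTX1_4 and 68.1 in shNPTX1_3 against 52.2 in shCTRL in the authors' deposited table. The shNPTX1_4 mean was 2.25 times the control mean and the shNPTX1_3 mean 1.30 times. THBD rose 1.85-fold by the authors' deposited table (log2 fold change 0.89, SE 0.27, adjusted p = 0.00664 by DESeq2), and its 95% interval ran from 1.28-fold to 2.68-fold.

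**Figure D3:**
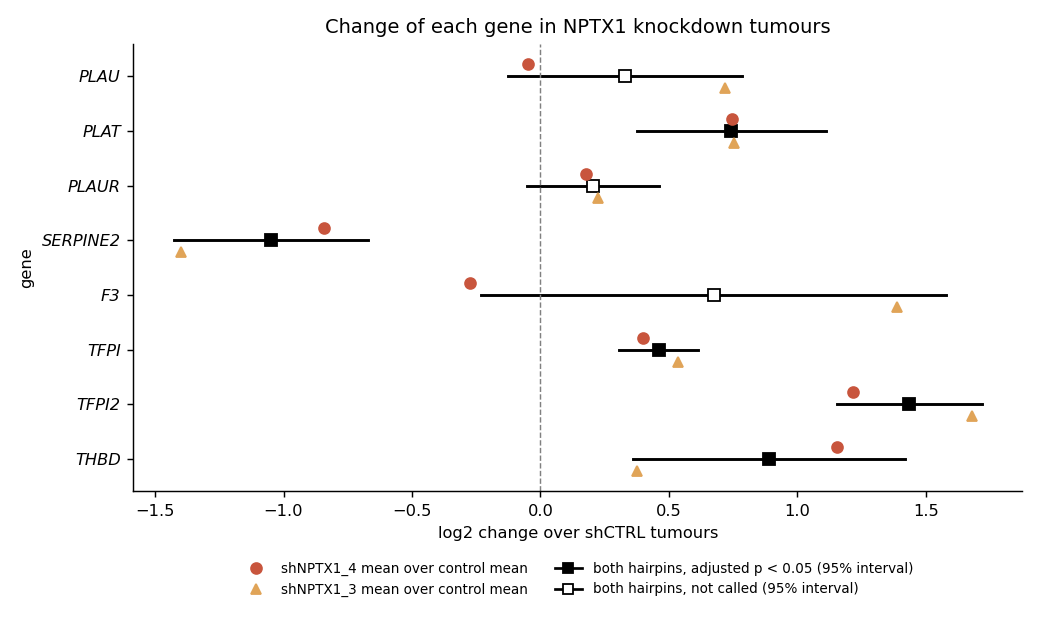
Log2 change over shCTRL tumours (horizontal axis) of 8 genes, with circles for the shNPTX1_4 mean, triangles for the shNPTX1_3 mean and squares with 95% intervals for the deposited comparison of both hairpins with control, filled where the adjusted p is under 0.05. The intervals of TFPI2, TFPI, PLAT and THBD lie above 0 and that of SERPINE2 below 0, while for PLAU and F3 the circle lies left of 0 and the triangle right of it.

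By hairpin, 6 of the 8 genes lay on the same side of control with both hairpins, and PLAU and F3 lay on opposite sides, each with a shNPTX1_4 mean slightly below control. With shNPTX1_4, TFPI2 and THBD were at least 2-fold above control and no member was at least 2-fold below, beside 1.47% of the 14131 genes above and 1.24% below. With shNPTX1_3, TFPI2 and F3 were at least 2-fold above control and SERPINE2 at least 2-fold below, beside 2.95% of those genes above and 1.51% below. The hairpin comparisons share the same control libraries.

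The hairpins were also set against each other directly, as the log2 ratio of the shNPTX1_4 mean over the shNPTX1_3 mean. F3 stood furthest apart at -1.66, and 99.5% of the 14131 genes had a smaller difference in size. THBD followed at 0.78, a size that 95.2% of genes fell short of, and PLAU at -0.77. SERPINE2 was at 0.56 and TFPI2 at -0.46, and TFPI (-0.13), PLAUR (-0.05) and PLAT (-0.01) lay below the median size of 0.18 over all 14131 genes. F3 was the only one of the 8 at least 2-fold apart between the hairpins, lower with shNPTX1_4, beside 1.82% of genes that far lower and 0.863% that far higher. Only group means are at hand, so the difference between the hairpins was not tested for any gene.

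Levels were compared between genes as normalized counts per kilobase of exon (union of exons in GENCODE 29, GRCh38). PLAU had 1314 in shNPTX1_4 and 2234 in shNPTX1_3 against 1359 in shCTRL per kilobase. TFPI2 had 518, 716 and 223 in shNPTX1_4, shNPTX1_3 and shCTRL, and TFPI had 463, 509 and 351 in the same groups, so TFPI2 stood above TFPI per kilobase with both hairpins and below it in shCTRL. F3 and PLAUR came next, at 40.2 and 42.4 in shNPTX1_4, 128 and 43.8 in shNPTX1_3, and 48.6 and 37.5 in shCTRL. THBD, PLAT and SERPINE2 were the lowest of the 8, from 5.54 to 28.6 with the hairpins and from 5.70 to 14.8 in shCTRL. SERPINE2 led these 3 in shCTRL and was last of the 8 with both hairpins. The order depends on the length used. By exon union PLAU was first in all 3 groups. Per kilobase of the median coding transcript, TFPI was first in shNPTX1_4 and in shCTRL, at 2277 and 1725 against 1557 and 1610 for PLAU, and PLAU was first in shNPTX1_3, at 2648. The median coding transcript of TFPI is 2384 bases against 11714 bases of exon union, and by it TFPI stood above TFPI2 in all 3 groups, at 2277, 2499 and 1725 against 781, 1078 and 336 in shNPTX1_4, shNPTX1_3 and shCTRL, and SERPINE2 stood sixth in shNPTX1_4 and in shCTRL and seventh in shNPTX1_3. Without values of single libraries it cannot be said which neighbours in these orders differ beyond their spread.

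Reads of some of these genes can be shared with neighbours. The TruSeq RNA kit, version 2, does not mark strand. C10orf55 lies on the strand opposite PLAU and shares 31.1% of its exonic bases, with authors' means of 124 normalized counts in shNPTX1_4 and 224 in shNPTX1_3 against 168 in shCTRL in the authors' deposited table. SERPINB10 shares 19.9% of the exonic bases of SERPINB2 on the same strand and is listed at 0 in all 3 groups in the authors' deposited table. The antisense gene AC007319.1 shares 1.01% of the exonic bases of TFPI, and GNGT1 and AC002076.1 share 1.64% and 2.95% of those of TFPI2.

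Of the other genes of the plasminogen system, 28.6% were called, near the 27.3% of all genes. The called genes were all higher as deposited. Of the 14 genes, 3 were higher and 1 lower under scaling to equal group totals, and 4 higher and 1 lower with centring on the median. Adjustment over genes at 2 CPM or more tested only 8 of them, with 3 higher and 1 lower. All 14 further genes were tested, and 4 rose and 0 fell by the authors' deposited table (DESeq2), with 1 lower at an unadjusted p under 0.05. The median log2 fold change of these 14 genes was 0.19, beside -0.01 over all genes. Neuroserpin (SERPINI1), an inhibitor of PLAT, rose 1.64-fold by the authors' deposited table (adjusted p = 5.16e-04 by DESeq2). ANXA2, which with S100A10 forms a cell-surface binding site for PLAT and plasminogen, rose 1.30-fold by the authors' deposited table (adjusted p = 0.0264 by DESeq2), a call lost under scaling to equal group totals (adjusted p = 0.0727). LRPAP1, the chaperone of the clearance receptor LRP1, rose 1.25-fold, and LRP1 was at -0.54 on the log2 scale (adjusted p = 0.0571 by DESeq2), by the authors' deposited table. The protease trap A2M, singled out after its values were seen because it completes the count of 4, had authors' means of 20.5 normalized counts in shNPTX1_4 and 44.2 in shNPTX1_3 against 4.84 in shCTRL in the authors' deposited table (log2 fold change 2.52, SE 0.45, adjusted p = 7.91e-07 by DESeq2). PLG, which encodes plasminogen, had authors' means of 22.0 normalized counts in shNPTX1_4 and 21.0 in shNPTX1_3 against 30.1 in shCTRL in the authors' deposited table (adjusted p = 0.181 by DESeq2).

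Among 25 further coagulation and anticoagulation genes, 22 were tested, with 5 higher and 2 lower by the authors' deposited table and a median log2 fold change of 0.11. The share called was 31.8%, beside 27.3% of all genes. Of the 4 protease-activated receptor genes, F2RL1 and F2R passed the test, while F2RL3 was at -0.39 (adjusted p = 0.0899) and F2RL2 at -0.29 (adjusted p = 0.361) on the log2 scale by the authors' deposited table (DESeq2). F2RL1, which trypsin-like proteases and the tissue factor complex can cut, rose 1.72-fold, with authors' means of 1047 normalized counts in shNPTX1_4 and 1053 in shNPTX1_3 against 613 in shCTRL in the authors' deposited table (adjusted p = 7.87e-06 by DESeq2). The thrombin receptor F2R rose 1.19-fold by the authors' deposited table (adjusted p = 0.0487 by DESeq2), a call lost under scaling to equal group totals (adjusted p = 0.163), with fold changes centred on the median (0.0774) and with adjustment over every named gene with a p (0.0576). The disulphide isomerase gene P4HB rose 1.40-fold and the factor VIII gene F8 1.65-fold in the authors' deposited table. The factor V gene F5, a cofactor of the prothrombin-cutting complex, fell by 0.48 on the log2 scale and the contact factor gene F12 by 0.64, by the authors' deposited table (adjusted p by DESeq2 = 0.0269 for F5 and 4.70e-04 for F12). F13A1, the remaining call and singled out after its values were seen, had authors' means of 8.95 normalized counts in shNPTX1_4 and 0.202 in shNPTX1_3 against 0.180 in shCTRL in the authors' deposited table. F7, the partner of tissue factor, was at 1.80, 1.52 and 5.13 normalized counts in shNPTX1_4, shNPTX1_3 and shCTRL in the authors' deposited table (adjusted p = 0.336 by DESeq2). The protein C receptor gene PROCR, which serves the same pathway as THBD, was at a log2 fold change of 0.31 by the authors' deposited table (adjusted p = 0.175 by DESeq2).

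**Figure D4:**
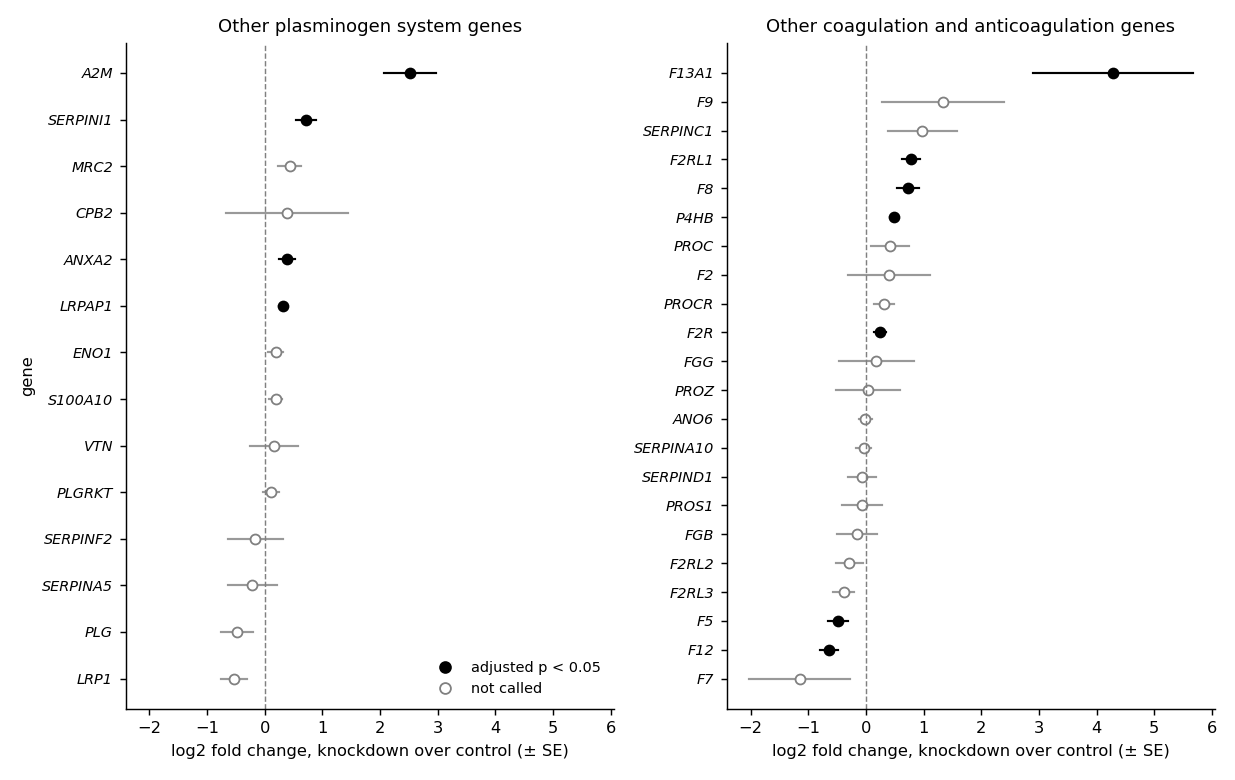
Log2 fold change of the authors' deposited comparison, knockdown over control, with its standard error, for the tested genes of the plasminogen system (left, 14 genes) and of coagulation and anticoagulation (right, 22 genes) outside the 9 genes. Filled circles passed an adjusted p of 0.05: on the left 4 genes, all higher, and on the right 5 higher and 2 lower. On the left, 1 gene was lower under scaling to equal group totals or centring on the median. The same count was lower with adjustment over genes at 2 CPM or more, which tested 8 of the 14.

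Of 12 other clade B serpins, the family of SERPINB2, 6 were tested and 1 fell (16.7%, beside 27.3% of all genes called), by the authors' deposited table. That gene was SERPINB9, the inhibitor of granzyme B, with authors' means of 368 normalized counts in shNPTX1_4 and 394 in shNPTX1_3 against 743 in shCTRL in the authors' deposited table (log2 fold change -0.97, SE 0.08, adjusted p = 1.37e-33 by DESeq2). Of 10 AP-1, EGR and ETS factor genes, the authors' deposited table had 1 higher and 2 lower, beside 27.3% of all genes called. With centring on the median, 1 was higher and 3 lower. Adjustment over every named gene with a p, or over genes at 2 CPM or more, left 1 higher and 2 lower. Scaling to equal group totals gave 1 and 5, but over all 18426 genes it also raised those called lower from 2114 to 3017. By the authors' deposited table ETS2 rose 1.81-fold, while on the log2 scale FOSB fell by 0.52 and JUND by 0.32. FOS had authors' means of 8946 normalized counts in shNPTX1_4 and 6852 in shNPTX1_3 against 9743 in shCTRL in the authors' deposited table (adjusted p = 0.10 by DESeq2).

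THBD, TFPI and PLAT are also known from vascular endothelium, and F3 from perivascular cells and macrophages, so markers of other cells were read beside them. The genes read here carry human symbols. A human and a mouse build are named for the processing, but how reads of the host were treated is not given. These markers therefore cannot show how much host tissue a tumour held, whether or not they were called. Of 10 endothelial markers, 8 were tested and none was called by DESeq2 in the authors' deposited table, with 1 under an unadjusted p of 0.05 (PECAM1) and sums of 511 normalized counts in shNPTX1_4 and 569 in shNPTX1_3 against 542 in shCTRL. Of these sums KDR alone made 253, 279 and 218. The endothelial cadherin gene CDH5 was at 1.80, 32.3 and 6.88 normalized counts in shNPTX1_4, shNPTX1_3 and shCTRL in the authors' deposited table, VWF was at 1.33, 3.68 and 0.966, and CLEC14A was listed at 0 in shNPTX1_4 and shCTRL and at 0.616 in shNPTX1_3. Of 10 macrophage markers, 7 were tested and none was called by DESeq2 in the authors' deposited table, with 0 under an unadjusted p of 0.05 and sums of 812, 1012 and 916 normalized counts in shNPTX1_4, shNPTX1_3 and shCTRL, and C1QA and MARCO were listed at 0 in all groups. CD68 alone made 635, 794 and 697 of the macrophage sums, so they mostly follow that gene. Of 10 fibroblast markers, the authors' deposited table had 3 higher and 1 lower, with sums of 3800 in shNPTX1_4 and 7326 in shNPTX1_3 against 2937 in shCTRL, of which COL3A1 alone made 2247, 5517 and 731. Under scaling to equal group totals, 1 endothelial marker was lower, and 3 fibroblast markers were higher and 2 lower. Over all 18426 genes, that scaling raised those called lower from 2114 to 3017. With centring on the median, no endothelial marker was called, and 3 fibroblast markers were higher and 1 lower. Of 10 hepatocyte markers, 6 were tested and 2 rose (APOA1 and TF), with sums of 98.9, 188 and 92.5 normalized counts in shNPTX1_4, shNPTX1_3 and shCTRL in the authors' deposited table, where albumin (ALB) was at 0.284, 0.616 and 0.784. Of 5 platelet markers, 2 were tested and 1 fell (ITGA2B), with sums of 99.0, 81.5 and 130 normalized counts in shNPTX1_4, shNPTX1_3 and shCTRL in the authors' deposited table, and PPBP and GP9 were listed at 0 with both hairpins. Of 10 carcinoma markers, 7 rose, among them KRT18 and KRT19, beside 15.8% of all genes called higher. VIM, EPCAM and MUC1 were not called, at log2 fold changes of 0.18, 0.12 and -0.35 (adjusted p = 0.184, 0.665 and 0.151 by DESeq2). VIM had 68305 and 68672 against 60617 normalized counts in shNPTX1_4, shNPTX1_3 and shCTRL in the authors' deposited table. Of the markers tested, 40.0% of fibroblast, 33.3% of hepatocyte, 50.0% of platelet and 70.0% of carcinoma markers were called. Over all genes the share was 27.3%. The part of other cell types in the changes of the 9 genes was not tested.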

How the data were processed

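Per the labels' protocols, RNA came from a Norgen total RNA kit and libraries from the TruSeq RNA kit, version 2. DESeq2 1.24, featureCounts 2.0.0, STAR 2.7.6a and MultiQC 1.9 appear in the submitters' processing notes, with the human build hg19 and the mouse build mm39 but no role for any of them. Not given in the sources used here are the annotation, the strand setting and any removal of host reads.

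Per the file headers, the deposited table gives group means, a signal (size-factor normalized counts, averaged by the authors over a group), and a DESeq2 comparison with a log2 fold change, its standard error, a Wald score, a p-value and an adjusted p. The log2 fold change of the deposited table is that of 7 knockdown over 4 control libraries: in 16439 rows averaging 10 or more, the median gap to the log2 ratio of means was 0.00401. The means summed to 19323225 normalized counts in shNPTX1_4, 19997078 in shNPTX1_3 and 18734008 in shCTRL. Depth of single libraries was not analysed here, and the median standard error at 2 CPM or more was 0.125 (log2).

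Of 23434 rows, 107 were left out (79 unnamed, 26 named by a date, 2 repeated names). The planned test per library gave way to the deposited comparison, because only group means are at hand. A call is an adjusted p below 0.05, over 18426 named genes. Log2 ratios and 2-fold counts for single hairpins used a pseudocount of 1, which understates changes of low genes, and a minimum mean of 2 CPM with no group at 0. Values given as times the control mean used no pseudocount. Intervals are the log2 fold change with its standard error at 95%. Members and lists were chosen with earlier results of these data known. The rule for naming list genes took those called with a mean of at least 2 CPM, up to 8 a list. A2M, F13A1, PLG, LRP1, F2RL2, F2RL3, F7, PROCR, FOS and the marker genes of other cells fall outside it and were chosen after their values were seen. One gene of the planned plasminogen list is not reported here. Promoters are RefSeq's on GRCh38.p14. Alternatives covered scaling, adjustment, threshold and pseudocount. The shifted Wald test was tested on simulated data. Python 3.11.15, pandas 2.3.3, scipy 1.17.1 and matplotlib 3.10.9 were used.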

Additional observations from a re-analysis of the deposited data

How the results depend on the processing

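For the 8 tested genes of the 9, each change kept its direction and its side of the threshold under scaling to equal group totals (a shift of 0.0661 on the log2 scale), with centring on the median, and with adjustment over every named gene with a p or over genes at 2 CPM or more. The count of 4 higher and 1 lower also held at an adjusted p under 0.01. Adjusted p-values over these settings ran from 0.00543 to 0.0129 for THBD, from 0.249 to 0.332 for F3 and from 0.262 to 0.410 for PLAU. Over all genes, total scaling turned the split of 2913 higher and 2114 lower into 2132 and 3017. Of the hairpin ratios, that of TFPI with shNPTX1_3 moved by more than the standard error of its fold change, to 0.44 under total scaling, and the counts at least 2-fold apart held under pseudocounts of 0.1 and 10. With no minimum mean, 4.75% of genes were at least 2-fold from control with shNPTX1_4 and 8.04% with shNPTX1_3. Alternatives for the list genes were chosen after the data were seen: the plasminogen list had 3 higher and 1 lower and the coagulation list 4 and 3 under total scaling. Leaving out single replicates was not run, since only group means are at hand. No paired analysis was possible because the columns are group means and carry no replicate number. Genes with almost no reads, such as SERPINB2, cannot show a change at this depth.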
